A study of Mus musculus with 12 samples.

Results

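To determine what c-MET and β-catenin changed in liver when dietary protein was restricted, the livers of c-MET/β-catenin mice fed with LPD were compared with those of LPD-fed Vec mice, which is 6 of the 12 libraries in the series. c-MET/β-catenin livers had received plasmids for human c-MET and ΔN90-β-catenin, a form of β-catenin lacking its N-terminal degradation signal, through a rapid high-volume injection into the tail vein together with the Sleeping Beauty transposase (SB-HTVI). Vec livers had received the vector alone. In all groups, male mice of 8 weeks were put on their diet 1 week before injection and stayed on it, with 3 livers on low-protein diet (LPD) and 3 on chow diet (CD) for each of Vec and c-MET/β-catenin. Every group was harvested when the CD-fed c-MET/β-catenin mice reached their end point. The study described its animals as a mixed 129/Ola and C57BL/6 background in one place and as C57/Bl3 in another, and the Vec libraries are titled WT. SB-HTVI puts the oncogenes into a scattered share of hepatocytes, so each library is bulk tissue holding transfected and untransfected hepatocytes and the other cells of the liver, although its label gives the cell type as hepatocyte. A gene was called higher or lower where the adjusted p of edgeR's quasi-likelihood test, over all genes tested, was below 0.05. Levels are in CPM, the counts of a gene relative to the scaled total of its library, and are not adjusted for gene length.

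β-Catenin is the transcriptional arm of Wnt signaling: once stabilized it joins TCF/LEF factors on DNA and switches on target genes, among them feedback inhibitors of the pathway itself. In the healthy liver this pathway is active next to the central vein, where it keeps on the genes for glutamine synthesis and for taking up glutamate and ammonium. The urea cycle runs mainly in periportal hepatocytes. c-MET is the receptor for hepatocyte growth factor and signals through ERK and PI3K. Together these oncogenes give hepatocellular carcinoma (HCC) in mice.

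The 6 LPD libraries held 19476209 to 26835788 counts each, and 13947 of the 27179 genes counted passed the filter on low counts. On LPD 184 genes, or 1.32% of those tested, differed between oncogene and Vec livers by this test, 161 of them higher (1.15%) and 23 lower (0.165%). The genes called higher had a median log2 fold change of 2.41 and 101 of them differed by over 4-fold. Those called lower had a median of -1.48 and 3 of them differed by over 4-fold. In each of the 184 genes the 3 oncogene livers lay wholly above or wholly below the 3 Vec livers, a separation seen in 25.2% of all genes tested. The median over all genes was 0.01, with 51.6% of them above 0. At an unadjusted p below 0.05 there were 1545 genes, 1003 higher and 542 lower.

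**Figure D1:**
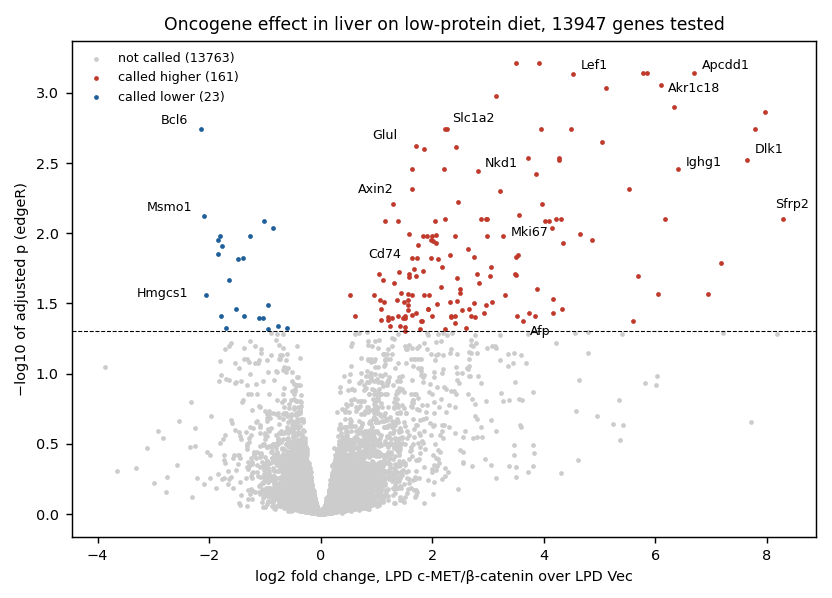
Each point is 1 of the 13947 genes tested, with its log2 fold change between the 3 LPD c-MET/β-catenin and the 3 LPD Vec livers on the horizontal axis and -log10 of its adjusted p (edgeR) on the vertical axis. The dashed line is the threshold of 0.05. The 161 genes called higher (red) reach a log2 fold change of 8.28 at Sfrp2, and the 23 called lower (blue) reach -2.15 at Bcl6.

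How firmly single calls stood depended on the libraries. The 3 oncogene livers were not alike: in 109 of the 161 genes called higher, c-MET/β-catenin replicate 3 was the lowest of the 3. Leaving out 1 LPD Vec liver left 52, 54 or 57 calls (of them 4, 5 or 10 lower), and leaving out c-MET/β-catenin replicate 2 left 96 (13 lower). All 184 genes kept their direction in every alternative that tested them. The 23 calls lower became 11 without c-MET/β-catenin replicate 1, but 50 without CD Vec replicate 2 and 41 without CD c-MET/β-catenin replicate 1. A core of 37 genes, 35 higher and 2 lower, was called whichever of the 12 libraries was left out. LPD Vec replicate 1 was the only one of the 6 libraries whose column header named a different group of data sets from the rest, and what that grouping stands for is not given. With it as a term in the fit 75 genes were called. On CD that grouping went largely with the oncogene. CD Vec replicates 1 and 2 were in 1 group of data sets and CD c-MET/β-catenin replicates 1 and 2 in another. Only replicate 3 of each shared a group, so the CD effect cannot be fully told apart from the grouping. The same holds for the interaction, the LPD effect minus the CD effect. With the term, 9 genes called on LPD had a called interaction, against 42 without it. The p-values measure the spread between livers that the labels give as separate samples.

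Some genes of the Wnt pathway itself rose in c-MET/β-catenin livers. Of 19 Wnt feedback inhibitors, receptors and factors, 6 were called higher, and 18 had a positive log2 fold change with a median of 0.55. Axin2, a scaffold of the complex that degrades β-catenin and a common readout of the pathway, was at 11.5, 11.1 and 8.87 CPM in Vec and at 37.1, 36.3 and 24.1 CPM in c-MET/β-catenin livers (log2 fold change 1.63 ± 0.23 SE, adjusted p = 0.00485). Nkd1, which binds Dishevelled and dampens the signal, was at 8.25, 7.9 and 6.92 CPM against 74.6, 51.8 and 36.4 CPM (2.82 ± 0.37, adjusted p = 0.00358). In both genes the lowest oncogene liver lay well above the highest Vec liver, and replicate 3 was the lowest of the oncogene livers.

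Lef1, a DNA-binding partner of β-catenin that adult hepatocytes barely express, went from 0.048, 0.211 and 0.154 CPM in Vec to 3.81, 4 and 2.23 CPM in oncogene livers (4.53 ± 0.45, adjusted p = 7.34e-04). Apcdd1, a membrane protein that blocks Wnt receptors, was at 0.192, 0.0422 and 0.0513 CPM against 15.6, 7.12 and 8.35 CPM (6.70 ± 0.65, adjusted p = 7.19e-04). Sp5, a repressor that β-catenin switches on directly, was at 1.63, 3.72 and 3.13 CPM against 9.53, 9.05 and 7 CPM (1.59 ± 0.29, adjusted p = 0.0196). Sfrp2, a secreted protein that binds Wnt ligands, had the largest fitted edgeR log2 fold change of all genes called: its CPM was 0.144, 0.0845 and 0 in Vec and 32.2, 34.8 and 10.7 in oncogene livers (8.28 ± 1.20, adjusted p = 0.00788). Lef1, Apcdd1, Axin2 and Nkd1 kept their calls without each of the 12 libraries. Sfrp2 lost its call without any one of the LPD Vec livers, with an adjusted p of at most 0.054. Sp5 lost its own without LPD Vec replicate 1 or 3 or without c-MET/β-catenin replicate 1 or 2, with an adjusted p of at most 0.0826.

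Other feedback genes did not pass the test. Znrf3, a ubiquitin ligase that removes Wnt receptors, was at 13, 9.67 and 11.4 CPM against 17.8, 16.6 and 15.6 CPM (log2 fold change 0.55, adjusted p = 0.0633). Notum, which inactivates Wnt ligands by removing their lipid, was at 0.45 (adjusted p = 0.482), Lgr5, a receptor for R-spondins, at 0.98 (adjusted p = 0.486), and Tcf7, a TCF/LEF factor, at 0.24 (adjusted p = 0.732). On CD their log2 fold changes were 1.36, 1.52, 3.38 and 3.31, all called higher there, as were 18.7% of all genes. The effect on LPD was smaller than that on CD by an interaction test for Znrf3 (adjusted p = 0.0221), Lgr5 (adjusted p = 0.0487) and Tcf7 (adjusted p = 3.73e-04), but not for Notum (adjusted p = 0.0523), a test that 8.91% of all genes passed. Mouse Ctnnb1, in which reads of the introduced β-catenin may or may not be counted, was at 290, 279 and 308 CPM in Vec against 364, 333 and 286 CPM, and mouse Met at 103, 87.9 and 85.9 CPM against 88.5, 81.4 and 77.4 CPM (adjusted p = 0.808 and 0.88). The introduced c-MET is the human gene, and whether its reads were counted in mouse Met was not tested, so neither count checks the injection.

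Pericentral hepatocyte genes, many of them known β-catenin targets, rose in part. In the list of 15, 5 were called higher and 13 were above 0, with a median of 0.87. Glul, glutamine synthetase, which fixes ammonia into glutamine, was at 1211, 1037 and 952 CPM in Vec and at 4112, 3889 and 2490 CPM in oncogene livers (log2 fold change 1.71 ± 0.21, adjusted p = 0.00241). Slc1a2, a glutamate transporter of the same cells, was at 123, 99.3 and 96.5 CPM against 526, 573 and 381 CPM (2.22 ± 0.26, adjusted p = 0.00182). Rhbg, an ammonium transporter, was at 12.6, 8.7 and 9.69 CPM against 83.8, 46.8 and 40.5 CPM (2.46 ± 0.35, adjusted p = 0.00601). All 3 held without each library. Oat, ornithine aminotransferase, which leads ornithine toward glutamate, was at 230, 145 and 189 CPM against 649, 407 and 469 CPM (1.43 ± 0.31, adjusted p = 0.0456). Lect2, a secreted hepatocyte protein, was at 116, 95.2 and 107 CPM against 364, 240 and 186 CPM (1.31 ± 0.24, adjusted p = 0.0225). Oat lost its call without 8 of the 12 libraries, every LPD library among them. Lect2 lost its own without any LPD Vec liver and without c-MET/β-catenin replicate 1 or 2. Leaving out any of those 5 libraries left 3 calls in the list. The highest adjusted p was 0.207 for Oat and 0.119 for Lect2.

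Among the list's other members, Gstm3, a glutathione transferase, had a log2 fold change of 1.96 (adjusted p = 0.119) and Cyp2a5, a cytochrome P450, of 1.87 (adjusted p = 0.347), and neither was called. The related Gstm2 was called higher at 1.59 (56.6, 49.8 and 49.6 CPM against 161, 201 and 109 CPM, adjusted p = 0.0204), a call lost without any LPD Vec liver or without c-MET/β-catenin replicate 1 or 2 (adjusted p of at most 0.114), although genes of this family share sequence and the split of reads between them is uncertain. No periportal gene was called in a list of 15 (2 at an unadjusted p below 0.05, 0 by DESeq2), and their median was -0.03. Hsd17b6, a steroid dehydrogenase, was at 133, 104 and 40.9 CPM in Vec and at 130, 151 and 176 CPM in oncogene livers. Igfbp2, an IGF-binding protein, was at 412, 365 and 285 CPM against 168, 60.9 and 249 CPM (log2 fold change -1.15, adjusted p = 0.362). On CD 13 of these 15 periportal genes were called lower, where 16.7% of all genes were, and the median was -2.28. The interaction was called for 9 of them, 8 with the LPD effect above the CD effect, beside 8.91% of all genes.

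The promoters of a feedback gene and of a transporter gene are shown for the TCF/LEF core CTTTGA, in capitals, which was searched on both strands in RefSeq windows from 250 bases before to 50 bases after the start of transcription (GRCm38.p6). It was in 12.3% of the windows of genes tested, in 21.8% of the 142 windows of genes called higher and in 2 of 8 windows of the Wnt genes called, and it overlaps TTTGAA where the letters run CTTTGAA. The 150 bases before the start are given 5′ to 3′ for Sp5 at chr2:70474773-70474922 (plus strand) and Slc1a2 at chr2:102706288-102706437 (plus strand). A match is a description of these letters and not evidence of binding.
Sp5: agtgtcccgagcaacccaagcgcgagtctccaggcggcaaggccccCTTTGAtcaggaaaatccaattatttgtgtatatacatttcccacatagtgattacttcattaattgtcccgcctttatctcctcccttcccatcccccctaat
Slc1a2: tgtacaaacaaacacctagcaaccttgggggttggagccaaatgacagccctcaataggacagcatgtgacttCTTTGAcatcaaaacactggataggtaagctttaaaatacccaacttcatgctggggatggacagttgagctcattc

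**Figure D2:**
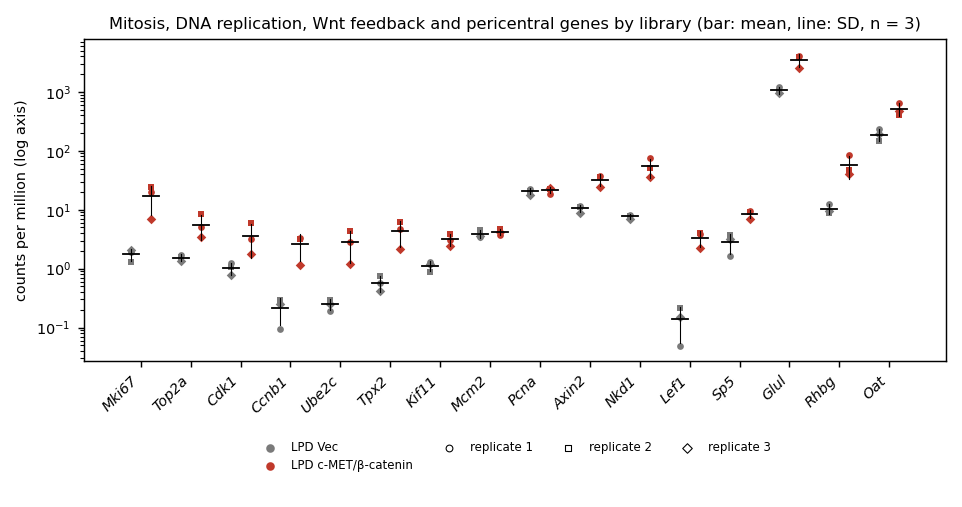
CPM on a log axis for mitosis genes (Mki67 to Kif11), DNA replication genes (Mcm2, Pcna), Wnt feedback genes (Axin2 to Sp5) and pericentral genes (Glul, Rhbg, Oat) in the 3 LPD Vec (gray) and 3 LPD c-MET/β-catenin (red) livers, with the mean as a bar, the SD as a line and the replicate number as the symbol. The groups separate in each gene drawn except Mcm2 and Pcna, and replicate 3 is the lowest oncogene liver for the mitosis genes.

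Glutamine and ammonia handling and the urea cycle are what the study is about. Of 17 genes of glutamine and ammonia handling, Glul, Slc1a2, Rhbg and Oat were called higher and the other 13 were not called. None of the 8 urea cycle enzymes and carriers was called by edgeR or by DESeq2, 1 had an unadjusted p below 0.05, and all 8 had a negative log2 fold change with a median of -0.28. Cps1, which makes carbamoyl phosphate from ammonia in the first step, was at 1504, 756 and 1257 CPM in Vec and at 1081, 536 and 1084 CPM in oncogene livers (-0.38 ± 0.45, adjusted p = 0.87). Otc, which joins it to ornithine, was at 315, 215 and 240 CPM against 278, 165 and 227 CPM (-0.20 ± 0.32, adjusted p = 0.911). The groups overlapped in both genes, and replicate 2 was the lowest liver of its group in both.

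Ass1, which makes argininosuccinate, was at 735, 434 and 584 CPM against 427, 301 and 381 CPM and had the largest negative value (-0.66 ± 0.42, adjusted p = 0.656). Asl, which splits it, was at -0.25 ± 0.18 (adjusted p = 0.713), and Nags, which makes the activator of Cps1, at -0.15 ± 0.21 (adjusted p = 0.892). The mitochondrial carriers Slc25a15 (ornithine) and Slc25a13 (aspartate and glutamate) were at -0.50 and -0.31 (adjusted p = 0.323 and 0.596). On CD 7 of the 8 were called lower and Nags higher. For Cps1, Otc and Asl the LPD effect was above the CD effect, by log2 differences of 2.72 ± 0.64, 2.48 ± 0.46 and 1.50 ± 0.26 (interaction adjusted p = 0.0262, 0.0107 and 0.00751). Ass1, at 1.77, did not pass that test (adjusted p = 0.086).

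None of 22 enzymes of amino acid breakdown was called on LPD by edgeR (4 at an unadjusted p below 0.05, 1 by DESeq2, 2 in the fit to the 6 LPD libraries alone), 20 were below 0, and the median was -0.28 beside -1.11 on CD, where 16 were called lower. In 9 of them the interaction was called, beside 8.91% of all genes, each with the LPD effect above that on CD. Tat, tyrosine aminotransferase, had the largest negative value, at 860, 524 and 1013 CPM in Vec and 436, 278 and 347 CPM in oncogene livers (-1.18, adjusted p = 0.0843). In the methionine cycle, Pemt, which makes phosphatidylcholine from phosphatidylethanolamine using S-adenosylmethionine, was the 1 gene of 12 called, at 316, 300 and 313 CPM against 181, 193 and 242 CPM (-0.60 ± 0.13, adjusted p = 0.0476). Gamt, which makes creatine with the same methyl donor, was at 289, 261 and 292 CPM against 148, 102 and 187 CPM (-0.95 ± 0.21, adjusted p = 0.0485). Both genes were also called lower on CD. Pemt lost its call without 9 and Gamt without 10 of the 12 libraries, every LPD Vec liver among them, with adjusted p values of at most 0.218 and 0.176.

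Of 18 amino acid transporters, Slc1a5, the main glutamine importer of dividing cells, was called higher, at 1.68, 1.99 and 2.51 CPM against 10.3, 11.9 and 6.43 CPM (2.21 ± 0.29, adjusted p = 0.00347), and held without each library. Slc7a11, the cystine importer and a gene of the Atf4 response, was at 0.096, 0.0845 and 0.103 CPM against 0.44, 0.912 and 0.525 CPM (2.69, adjusted p = 0.0577). None of the 20 genes of the Atf4 response and serine synthesis was called (1 at an unadjusted p below 0.05, 1 by DESeq2, 2 in the fit to the 6 LPD libraries alone, 1 with scaling by library totals), nor were any of the 18 aminoacyl-tRNA synthetases (0 and 0) or the 20 genes of nucleotide synthesis (0 and 0), whose medians were 0.28, -0.02 and -0.07.

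Many genes of mitosis rose on LPD, and genes of DNA replication did not pass the test. All 30 mitosis genes had a positive log2 fold change, with a median of 2.10, and 13 of them, 43.3%, were called higher. Mki67, the nuclear protein used to stain dividing cells, was at 1.92, 1.31 and 2.05 CPM in Vec and at 19.6, 24 and 7.08 CPM in oncogene livers (3.27 ± 0.52, adjusted p = 0.0105). Ccnb1, the cyclin that drives entry into mitosis, was at 0.096, 0.296 and 0.256 CPM against 3.37, 3.23 and 1.14 CPM (3.53 ± 0.61, adjusted p = 0.0143). Ube2c, the conjugating enzyme with which the anaphase-promoting complex destroys cyclin B, was at 0.192, 0.296 and 0.256 CPM against 2.83, 4.42 and 1.22 CPM (3.48 ± 0.63, adjusted p = 0.0196). In each of these genes all 3 oncogene livers exceeded all Vec livers, and replicate 3 was far below the other two.

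The spindle and division genes Tpx2 (2.87), Aurkb (2.54), Cenpe (2.45), Racgap1 (2.34), Prc1 (2.33), Ect2 (2.22), Birc5 (1.98) and Kif11 (1.49) and the cyclins Ccna2 and Ccnb2 (both 2.31) made up the rest of the calls. Of the genes that missed the threshold, Top2a, which untangles chromosomes, had a log2 fold change of 1.86 (1.73, 1.56 and 1.33 CPM against 5.03, 8.32 and 3.45 CPM, adjusted p = 0.061), Bub1, a checkpoint kinase, of 3.12 (adjusted p = 0.0632), and Cdk1, the kinase that works with cyclin B, of 1.83 (adjusted p = 0.21). These calls rested on few libraries. Without LPD Vec replicate 1, 2 or 3 the list had 1, 1 or 0 calls, without c-MET/β-catenin replicate 1 or 2 it had 7 or 3, and without replicate 3 it had 22. DESeq2 called 27, the fit with the replicate number as a block 7 and the fit with the header grouping 4, while the list's median lay between 1.80 and 2.37 in all 19 alternatives.

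In contrast, 0 of 23 DNA replication genes were called by edgeR or DESeq2 (2 at an unadjusted p below 0.05), and their median was 0.06. Mcm2, of the replicative helicase, was at 3.5, 4.6 and 3.54 CPM in Vec and at 3.76, 4.77 and 4.11 CPM in oncogene livers (0.12 ± 0.46, adjusted p = 0.966). Pcna, the sliding clamp, was at 22.7, 20.9 and 18 CPM against 18.6, 22.1 and 23.8 CPM (0.07 ± 0.17, adjusted p = 0.949). The groups overlapped in both. Gins2, of the same helicase, had the largest value of the list at 0.84 (adjusted p = 0.626). On CD 17 of the 23 were called higher, where 18.7% of all genes were, with a median of 1.29, against all 30 mitosis genes with a median of 4.18. A test of the interaction was passed by 3 of the 23 replication and 6 of the 30 mitosis genes, beside 8.91% of all genes. No gene of homologous recombination and checkpoint signaling was called in a list of 16 (3 at an unadjusted p below 0.05, 0 by DESeq2), with Clspn, a checkpoint adaptor, highest at 2.02 (adjusted p = 0.237), and none of 21 genes of G1 to S control (1 and 1).

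The promoters of mitosis genes carry a known pair of elements, CCAAT, bound by NF-Y, and the cell cycle homology region TTTGAA. Of 27 windows of mitosis genes (25 of the 30 genes have one), 85.2% held CCAAT, 77.8% TTTGAA and 70.4% both, beside 37.6%, 12.4% and 4.89% of the windows of genes tested and 37.4%, 17.9% and 6.95% of all 32851 windows. In the 24 windows of DNA replication genes the shares were 62.5%, 12.5% and 8.33%. Among the 142 windows of all genes called higher, 16.9% held both. The promoters of 3 genes called higher are shown with both motifs in capitals, ATTGG and TTCAAA being their forms on the other strand: Mki67 at chr7:135716380-135716529 (minus strand), Ube2c at chr2:164769779-164769928 (plus strand) and Kif11 at chr19:37376232-37376381 (plus strand), each the 150 bases before the start, 5′ to 3′, from RefSeq (GRCm38.p6).
Mki67: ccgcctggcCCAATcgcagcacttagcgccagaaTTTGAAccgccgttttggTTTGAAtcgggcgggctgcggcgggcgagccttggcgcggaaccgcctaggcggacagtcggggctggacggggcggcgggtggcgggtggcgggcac
Ube2c: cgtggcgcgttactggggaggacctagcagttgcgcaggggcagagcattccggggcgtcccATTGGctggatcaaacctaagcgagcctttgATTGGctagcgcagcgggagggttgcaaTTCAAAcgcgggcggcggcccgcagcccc
Kif11: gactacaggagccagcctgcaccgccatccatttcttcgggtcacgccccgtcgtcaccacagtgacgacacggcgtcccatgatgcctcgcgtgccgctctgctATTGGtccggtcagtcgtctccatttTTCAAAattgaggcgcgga

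MET and ERK feedback showed 1 call in 17 genes. Dusp5, a phosphatase that turns ERK off in the nucleus, was at 0.672, 0.676 and 0.359 CPM against 1.47, 2.11 and 1.79 CPM (1.64 ± 0.34, adjusted p = 0.038). It lost the call without 8 of the 12 libraries, every LPD library among them (adjusted p of at most 0.169). Phlda3, an inhibitor of AKT that p53 switches on, was the 1 gene of 16 p53 targets called, at 1.25, 1.27 and 0.872 CPM against 5.28, 5.93 and 3.02 CPM (2.06 ± 0.34, adjusted p = 0.0117). It lost the call without any LPD Vec liver or without c-MET/β-catenin replicate 2, with an adjusted p of at most 0.0778. Eda2r, a death receptor of the same list, had the same log2 fold change of 2.06 with a larger error (0.50, adjusted p = 0.074).

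Some fetal and progenitor genes of liver rose. Of 20 tested, 7 were called higher and 16 were above 0, with a median of 1.73. Dlk1, a surface protein of fetal hepatoblasts, was counted 0, 3 and 0 times in Vec and 336, 308 and 93 times in oncogene livers, a 219-fold ratio whose 95% counting interval runs from 74.6 to 1064 (adjusted p = 0.00301). Akr1c18, a steroid reductase, was at 1.01, 2.07 and 0.205 CPM against 85.9, 96.2 and 51.3 CPM (log2 fold change 6.10 ± 0.59, adjusted p = 8.73e-04). Prom1, the stem cell surface protein CD133, was at 0.912, 1.14 and 0.667 CPM against 9.28, 25.2 and 8 CPM (3.95 ± 0.45, adjusted p = 0.00182). These 3 kept their calls without each library, and in Prom1 replicate 2 stood far above the other oncogene livers.

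Afp, alpha-fetoprotein, the serum marker of HCC, was at 6.09, 6.04 and 3.39 CPM in Vec and at 115, 56.5 and 20.3 CPM in oncogene livers (3.62 ± 0.75, adjusted p = 0.0419). Gpc3, a surface proteoglycan that also marks HCC, was at 1.39, 1.1 and 0.718 CPM against 11.4, 28.1 and 3.24 CPM (3.73 ± 0.75, adjusted p = 0.0373). Golm1, a Golgi protein raised in HCC, was at 2.06, 3.59 and 1.85 CPM against 10, 16.8 and 5.6 CPM (2.11 ± 0.37, adjusted p = 0.0153). For Afp, replicate 1 was the highest and replicate 3 the lowest of the oncogene livers. Afp lost its call without 9, Gpc3 without 7 and Golm1 without 2 of the 12 libraries, LPD Vec replicates 1 and 3 among them in each case, with adjusted p values of at most 0.2, 0.17 and 0.0955. Without either of those livers the list had 3 calls, and so it did in the fit to the 6 LPD libraries alone.

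The imprinted genes Meg3, Rian, Mirg, H19 and Igf2 also had positive log2 fold changes, and not all passed the test. Imprinted genes as a class were not tested. Meg3, a noncoding RNA from the maternal copy of the Dlk1 region, was at 1.01, 1.94 and 0.513 CPM against 38.5, 14.9 and 10.1 CPM (4.15 ± 0.63, adjusted p = 0.00923). Rian, transcribed from the same region, was at 0.72, 0.972 and 0.154 CPM against 22.5, 9.09 and 6.25 CPM (4.30 ± 0.63, adjusted p = 0.00788). Mirg, next in the region, had 2.66 (adjusted p = 0.0782). These genes were grouped with Dlk1 after their values were seen. Without LPD Vec replicate 1, Meg3 and Rian missed the threshold (adjusted p = 0.064 and 0.0517), and Meg3 did so without LPD Vec replicate 3 too. H19, a noncoding RNA of another imprinted region, was at 0.48, 1.06 and 0.154 CPM against 3.66, 3.44 and 0.787 CPM (2.16, adjusted p = 0.151). Its neighbor Igf2, a fetal growth factor, was at 0.432, 0.676 and 0.564 CPM against 3.66, 1.05 and 0.743 CPM (1.67, adjusted p = 0.248). The H19 groups overlapped, and its log2 fold change on CD was 7.30, with an LPD minus CD difference of -5.13 ± 0.94 (interaction adjusted p = 0.0109).

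The largest increases were in genes that healthy liver hardly expresses. In the list of carbonic anhydrases, Car4, a membrane carbonic anhydrase, was at 0.24, 0 and 0 CPM in Vec and at 20.2, 23.4 and 11.3 CPM in oncogene livers (7.78 ± 0.89, adjusted p = 0.00182). Car2, the cytosolic enzyme, was at 6.05, 5.74 and 5.33 CPM against 13.9, 18 and 12.7 CPM (1.38 ± 0.21, adjusted p = 0.00824). They were the 2 called of 8 carbonic anhydrases, and without an LPD Vec liver Car2 was not called (adjusted p of at most 0.0583). Dner, a Notch ligand of neurons, had 1 count in all Vec livers and 365 in oncogene livers, a 325-fold ratio (counting interval 58 to 12882, adjusted p = 0.00137). Sbspon, an extracellular matrix protein, had 3 against 305 counts, a 90.6-fold ratio (30.7 to 442, adjusted p = 0.00127).

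Arnt2, a bHLH-PAS transcription factor, was at 0.096, 0.253 and 0.0513 CPM against 10, 9.37 and 5.69 CPM (5.85 ± 0.56, adjusted p = 7.19e-04). Elovl7, a fatty acid elongase, was at 0.336, 0.338 and 0.205 CPM against 12.5, 11.4 and 7.43 CPM (5.12 ± 0.52, adjusted p = 9.30e-04). Prokr2, a G protein-coupled receptor for prokineticins, was at 0, 0.338 and 0 CPM against 7.53, 6.91 and 3.28 CPM (5.53 ± 0.76, adjusted p = 0.00485). All 3 held without each library and were higher on CD too, by 6.89, 6.04 and 6.19. Akr1b7, an aldo-keto reductase, was at 0.048, 0.169 and 0 CPM against 2.54, 12.1 and 3.15 CPM (6.17 ± 0.92, adjusted p = 0.00788), and missed the threshold without LPD Vec replicate 1 (adjusted p = 0.0564). The 4 subunit genes of voltage-gated sodium channels that passed the filter on low counts, of 14 in a group made after their values were seen, were called higher. Scn4b had 111 counts in oncogene livers against 3 in Vec, a 33-fold ratio with a counting interval of 11 to 162, and Scn8a had a log2 fold change of 3.85. Without LPD Vec replicate 1, 2 or 3 the group had 0, 1 or 0 calls, and without c-MET/β-catenin replicate 1 or 2 it had 1.

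The genes that fell were led by cholesterol synthesis. All 21 genes of the list had a negative log2 fold change, with a median of -1.54, in each of them the oncogene livers lay below all Vec livers (25.2% of all genes separated in either direction), and 9 of the 23 genes called lower came from it. Hepatocytes make cholesterol from acetyl-CoA through mevalonate, farnesyl diphosphate, squalene and lanosterol, and the transcription factor SREBP2 switches these genes on together when sterols in the cell run low. At the start of the pathway, Hmgcs1, HMG-CoA synthase, was at 564, 704 and 453 CPM in Vec and at 118, 174 and 121 CPM in oncogene livers (-2.06 ± 0.39, adjusted p = 0.0275). Mvk, mevalonate kinase, was at -1.26 (adjusted p = 0.0589) and Mvd, which makes isopentenyl diphosphate, at -1.84 ± 0.30 (48.3, 46.8 and 37.5 CPM against 10, 15.1 and 12 CPM, adjusted p = 0.0112).

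Further down, Fdps, farnesyl diphosphate synthase, was at 310, 387 and 304 CPM against 79.8, 120 and 85 CPM (-1.81 ± 0.29, adjusted p = 0.0104). Sqle, squalene epoxidase, was at 144, 182 and 135 CPM against 29.1, 66.3 and 32.5 CPM (-1.85 ± 0.31, adjusted p = 0.014). Lss, which closes the sterol rings, was at 70.8, 84.8 and 56.8 CPM against 24.4, 33.3 and 22.8 CPM (-1.40 ± 0.24, adjusted p = 0.0149). Of the enzymes after lanosterol, Msmo1, the sterol C4-methyl oxidase, was at 261, 274 and 207 CPM against 49.1, 67.1 and 57.5 CPM (-2.09 ± 0.31, adjusted p = 0.00756) and held without each library. Its partners Nsdhl and Hsd17b7 were at -1.64 ± 0.30 and -1.10 ± 0.23 (adjusted p = 0.0214 and 0.0403), and Dhcr7, which makes cholesterol from its last precursor, at -1.77 ± 0.29 (adjusted p = 0.0123). Replicate 2 was the highest oncogene liver for each of these but stayed below every Vec liver. Tm7sf2, a sterol reductase outside the list that was picked out after its values were seen, was called lower too, at 166, 175 and 139 CPM against 61, 97.5 and 76 CPM (-1.03 ± 0.22, adjusted p = 0.04).

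Of the 12 members not called, Cyp51 (-1.17, adjusted p = 0.0633), Sc5d (-1.60, adjusted p = 0.0609), Fdft1 (-1.07, adjusted p = 0.0666) and Idi1 (-1.79, adjusted p = 0.102) are enzymes of the pathway. Regulators were also below 0. Srebf2, the gene for SREBP2, was at -0.81 (adjusted p = 0.0958). Insig1, which holds SREBP2 in the endoplasmic reticulum, was at -1.54 (adjusted p = 0.0836). DESeq2 called 18 of the 21 and the fit to the 6 LPD libraries alone 15. Without LPD Vec replicate 1 or 2 the list had 2 or 1 calls and without c-MET/β-catenin replicate 1 or 3 it had 5, while its median lay between -1.59 and -1.35 in all 19 alternatives.

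**Figure D3:**
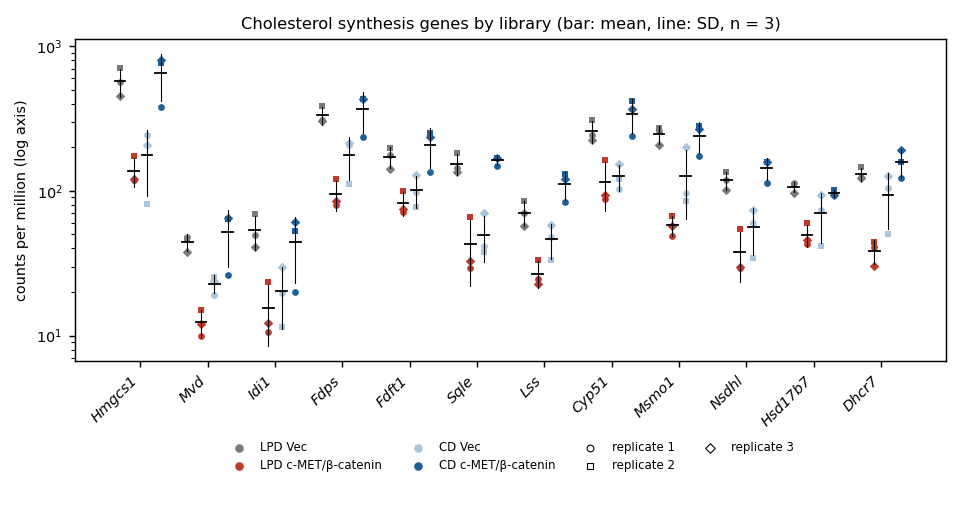
CPM on a log axis of 12 cholesterol synthesis genes in all 12 libraries, with LPD Vec in gray, LPD c-MET/β-catenin in red, CD Vec in light blue and CD c-MET/β-catenin in dark blue, the mean as a bar, the SD as a line (n = 3) and the replicate number as the symbol. The red points lie below the gray ones in every gene (Hmgcs1, 118 to 174 against 453 to 704 CPM), while on CD the mean of the oncogene livers lies above that of Vec in each gene.

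On CD, where the oncogene effect cannot be fully told apart from the header grouping, these genes went the other way. The list's median was 1.05 there, and 12 of its members were called higher and none lower, beside 18.7% of all genes higher. In 17 of the 21 the interaction was called, beside 8.91% of all genes, each with the LPD effect below the CD effect. The difference between the LPD and CD effects was -3.94 ± 0.55 for Hmgcs1 (interaction adjusted p = 0.00343), -3.55 ± 0.44 for Sqle (adjusted p = 0.003), -3.24 ± 0.40 for Mvk (adjusted p = 0.00312) and -2.07 ± 0.30 for Srebf2 (adjusted p = 0.00346). Of the 184 genes, 10 were called in opposite directions on the 2 diets, each lower on LPD and higher on CD. They were Hmgcs1, Mvd, Fdps, Sqle, Lss, Msmo1 and Nsdhl of the list, with Aldoc, an aldolase, Ggct, which breaks down glutathione, and 4930483K19Rik. Aldoc was at 16.9, 20.1 and 12.1 CPM against 6.94, 7.47 and 6.03 CPM (-1.26 ± 0.20, adjusted p = 0.0104). Ggct was at 13.4, 12.8 and 16.6 CPM against 7.33, 6.56 and 7.39 CPM (-1.01 ± 0.15, adjusted p = 0.00824). Of the 10, Msmo1 alone kept its LPD call without each library. Aldoc lost its own without LPD Vec replicate 1 or 2, Ggct without LPD Vec replicate 3 and 4930483K19Rik without 7 of the 12 libraries, with adjusted p values of at most 0.0602, 0.0564 and 0.172.

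The promoters of 3 of the 10 genes are shown with matches in capitals. The motifs are CCAAT, which reads ATTGG on the other strand, and, in Hmgcs1, TCACNCCA, a sterol regulatory element that was added to the search after the list's values were seen. CCAAT was in 86.7% of the 15 windows of the list (13 of 21 genes have one) and TCACNCCA in 20%, beside 37.6% and 3.82% of the windows of genes tested and 44.4% and 14.8% of the 27 windows of all genes called lower. TTTGAA was in none of the 15. Each is the 150 bases before the start, 5′ to 3′, from RefSeq (GRCm38.p6): Hmgcs1 at chr13:119690201-119690350 (plus strand), Msmo1 at chr8:64733579-64733728 (minus strand) and Nsdhl at chrX:72918371-72918520 (plus strand).
Hmgcs1: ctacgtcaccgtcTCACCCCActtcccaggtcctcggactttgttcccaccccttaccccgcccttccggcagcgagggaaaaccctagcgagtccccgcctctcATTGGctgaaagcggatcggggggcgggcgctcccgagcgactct
Msmo1: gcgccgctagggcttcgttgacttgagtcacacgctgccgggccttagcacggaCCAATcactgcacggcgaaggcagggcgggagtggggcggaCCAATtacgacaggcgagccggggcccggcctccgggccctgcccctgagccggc
Nsdhl: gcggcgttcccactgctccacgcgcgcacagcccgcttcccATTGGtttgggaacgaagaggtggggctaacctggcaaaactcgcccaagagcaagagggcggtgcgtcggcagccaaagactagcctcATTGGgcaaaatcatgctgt

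Neighboring lipid pathways held few calls. Of 20 genes of fatty acid and triglyceride synthesis 18 were below 0, with a median of -0.60, and none was called (6 at an unadjusted p below 0.05, 1 by DESeq2), but the fit to the 6 LPD libraries alone called 5 of them lower. Fasn, fatty acid synthase, was at 1320, 1116 and 908 CPM in Vec and at 386, 469 and 280 CPM in oncogene livers, which did not overlap. Its log2 fold change of -1.56 had an error of 0.65 in the fit to all 12 libraries (adjusted p = 0.382), and in the fit to the 6 LPD libraries alone Fasn was called (adjusted p = 0.00853). Thrsp, a lipogenic nuclear protein, was at 1371, 887 and 1085 CPM against 533, 276 and 475 CPM (-1.38, adjusted p = 0.0782). In bile acid synthesis, Cyp8b1, the sterol 12α-hydroxylase, was called lower, at 517, 377 and 554 CPM against 212, 140 and 168 CPM (-1.48 ± 0.26, adjusted p = 0.0153). It fell further on CD, by 3.01 on the log2 scale (interaction adjusted p = 0.0246). It lost its LPD call without LPD Vec replicate 1 or 3 or c-MET/β-catenin replicate 2 or 3 (adjusted p of at most 0.0859). Akr1d1, the reductase that shapes bile acids from the same intermediates, was at 154, 62.1 and 79.7 CPM against 26.4, 20.6 and 44 CPM (-1.70 ± 0.37, adjusted p = 0.0476). It lost its call without 10 of the 12 libraries (at most 0.209). Cyp7a1, the first enzyme of the pathway, was at -0.95 (adjusted p = 0.467). Abcc4, which exports bile acids into blood, was called higher at 2.11, 1.77 and 1.64 CPM against 5.86, 21.1 and 6.65 CPM (2.61 ± 0.56, adjusted p = 0.0476), a call lost without 8 libraries (at most 0.201).

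Lpl, lipoprotein lipase, was the 1 call among 15 genes of lipid droplets and lipid uptake, at 7.2, 10.9 and 9.39 CPM against 18.7, 21.2 and 21.1 CPM (1.15 ± 0.18, adjusted p = 0.00824). It missed the threshold without LPD Vec replicate 1 (adjusted p = 0.0517). On CD it rose by 4.04, an LPD minus CD difference of -2.89 ± 0.25 (interaction adjusted p = 3.73e-04). No gene was called among 22 of glycolysis and gluconeogenesis (3 at an unadjusted p below 0.05, 1 by DESeq2, 2 in the fit to the 6 LPD libraries alone, median -0.19), 19 of fatty acid oxidation (2 and 1, median -0.02) or 16 of oxidative phosphorylation (0 and 0, median -0.18), although all 16 of the last were below 0 and on CD all 16 were called lower.

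Bcl6 had the largest decrease of the genes called. It encodes a transcriptional repressor that liver turns down in response to growth hormone. It was at 58.5, 70.8 and 52.2 CPM in Vec and at 15.3, 12.5 and 13.1 CPM in oncogene livers (-2.15 ± 0.25, adjusted p = 0.00182) and was called in all 19 alternatives, as was Msmo1 alone among the other genes called lower. On CD Bcl6 was not called (-0.48), and the 2 effects differed by -1.67 ± 0.35 (interaction adjusted p = 0.0165). Of the other 13 genes of the growth hormone and IGF axis none was called (3 at an unadjusted p below 0.05, 1 by DESeq2). Cish, which STAT5 switches on, was at 3.89, 1.77 and 3.33 CPM against 10.5, 9.68 and 21.3 CPM (2.21 ± 0.73, adjusted p = 0.232), and its effect lay above that on CD by 3.74 (interaction adjusted p = 0.0413).

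Of 15 female-biased liver genes tested in these male livers, 2 were called higher and 14 were above 0, with a median of 2.07. A1bg, a secreted immunoglobulin-like protein, was at 0.528, 0.338 and 0.308 CPM against 12.1, 42 and 7.08 CPM (5.69 ± 1.01, adjusted p = 0.0201). Hao2, a hydroxyacid oxidase, was at 0.192, 0.211 and 0.103 CPM against 1.17, 3.44 and 1.36 CPM (3.52 ± 0.73, adjusted p = 0.039). Sult3a1, a sulfotransferase, had 0 counts in Vec and 61 in oncogene livers, at least 18.1-fold higher against a floor of 3 counts over the group, and missed the threshold (adjusted p = 0.0511). Cyp2a4, a steroid hydroxylase whose reads can be shared with Cyp2a5, was at 24.5, 1.18 and 0 CPM against 31.4, 204 and 48 CPM (3.47, adjusted p = 0.38). In all 4 replicate 2 was the highest oncogene liver. Neither call held without any one LPD Vec liver (adjusted p of at most 0.121 for A1bg and 0.176 for Hao2), where the list had 0 calls, and Hao2 lost its own without c-MET/β-catenin replicate 2 and without 2 CD libraries too. The exception in sign was Cyp17a1, at 60.3, 37.3 and 48.4 CPM against 14.6, 14.7 and 14.4 CPM (-1.74, adjusted p = 0.551), which the fit to the 6 LPD libraries alone called lower (adjusted p = 0.00147).

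Male-biased genes had no call among 16 (1 at an unadjusted p below 0.05, 0 by DESeq2) and a median of 0.07, while on CD 12 were called lower with a median of -2.71. In 8 the interaction was called, beside 8.91% of all genes, each with the LPD effect above the CD effect. Mup21, a major urinary protein, was at 131, 203 and 450 CPM against 1265, 203 and 349 CPM on LPD (1.21, adjusted p = 0.663) and differed from its CD effect by 6.12 (interaction adjusted p = 0.0135). Cyp4a12b, an arachidonic acid hydroxylase, was at 1.67 (adjusted p = 0.281) and differed by 4.94 (adjusted p = 0.00891). Both belong to families with near-identical members, which makes their single counts uncertain. No hepatocyte transcription factor was called in a list of 17 (0 at an unadjusted p below 0.05, 0 by DESeq2, median -0.02), nor any of 21 secreted proteins (1 and 0, median -0.20).

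Some interferon and chemokine genes were called higher. All 21 interferon-stimulated genes were above 0, with a median of 0.90, and 3 were called, Usp18, Gbp2 and Cxcl10. Usp18, which removes ISG15 and restrains the interferon receptor, was at 1.87, 3.55 and 3.23 CPM in Vec and at 16.4, 14.9 and 10.3 CPM in oncogene livers (2.26 ± 0.26, adjusted p = 0.00182) and held without each library. Gbp2, a guanylate-binding protein, was at 2.69, 3.04 and 2.21 CPM against 7.09, 7.16 and 11.9 CPM (1.71 ± 0.35, adjusted p = 0.0373). Of the chemokines that interferon-γ induces, Cxcl9 was at 3.41, 3.89 and 2.56 CPM against 25.4, 21.9 and 35.2 CPM (3.06 ± 0.53, adjusted p = 0.0174). Cxcl10 was at 1.25, 1.61 and 0.718 CPM against 4.4, 3.58 and 6.03 CPM (1.95 ± 0.38, adjusted p = 0.0275). Of 21 chemokines and receptors, Ccl5 (2.06 ± 0.33) and Cx3cl1 (2.15 ± 0.41) were called beside these 2. Here replicate 3 was the highest oncogene liver for Gbp2, Cxcl9, Cxcl10 and Ccl5.

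In antigen presentation 4 of 15 genes were called, all of the MHC class II pathway, with which macrophages, dendritic cells and B cells present peptides. Cd74, the invariant chain, was at 42.1, 51.7 and 38.9 CPM against 105, 120 and 213 CPM (1.72 ± 0.30, adjusted p = 0.015). H2-Aa was at 17.4, 16.4 and 15.2 CPM against 43.3, 44.3 and 67.8 CPM (1.67 ± 0.29, adjusted p = 0.0181). H2-Ab1 was at 17.4, 20.8 and 17.2 CPM against 45.8, 49.8 and 69.2 CPM (1.57 ± 0.31, adjusted p = 0.0323). H2-DMa, which loads the peptides, was at 1.87, 1.56 and 1.38 CPM against 4.3, 3.72 and 6.91 CPM (1.63 ± 0.28, adjusted p = 0.0149). Without any one LPD Vec liver neither this list nor the chemokine list held a call, and with the header grouping as a term this list held none and the chemokine list 2. The interferon list held 1, Usp18, without each LPD Vec liver and without c-MET/β-catenin replicate 1 or 3, and 5 without CD c-MET/β-catenin replicate 3. The fit to the 6 LPD libraries alone called 10 interferon, 7 antigen presentation and 5 chemokine genes.

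Among markers of immune cells few passed the test. All 11 Kupffer cell and macrophage markers were above 0, with a median of 0.73, and none was called (9 at an unadjusted p below 0.05, 2 by DESeq2, 4 in the fit to the 6 LPD libraries alone). Their summed level was 216 to 271 CPM in Vec and 295 to 526 CPM in oncogene livers. C1qb, a complement subunit, was at 5.09, 6.59 and 6.98 CPM against 9.72, 14.6 and 16.2 CPM (1.12, adjusted p = 0.123). Adgre1, the F4/80 antigen, was at 1.05 (adjusted p = 0.36), Cd5l, a secreted macrophage protein, at 0.94 (adjusted p = 0.348) and Clec4f, the Kupffer cell lectin, at 0.53 (adjusted p = 0.644). All 12 T and NK cell markers were above 0, with a median of 1.02 and a summed level of 4.32 to 7.44 CPM against 8.8 to 14.3 CPM, and none was called (5 at an unadjusted p below 0.05, 1 by DESeq2). Cd8a was highest at 2.24 (adjusted p = 0.129). Of 11 markers of recruited monocytes and macrophages, Itgax, the integrin CD11c, named here after its values were seen, was the 1 called, at 1.92 ± 0.39 (adjusted p = 0.0344), and their summed level was 94.8 to 124 CPM against 120 to 161 CPM. The list held 0 calls without any one LPD Vec liver, without c-MET/β-catenin replicate 2 or 3, without CD c-MET/β-catenin replicate 2, with the replicate block and with the header grouping as a term. The part of these cells in the immune calls was not tested, and in bulk tissue more cells of a type and more RNA per cell cannot be told apart.

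Ighg1, the IgG1 heavy chain of plasma cells, was at 0.144, 0.591 and 0.513 CPM in Vec and at 9.19, 35.6 and 63.3 CPM in oncogene livers (6.41 ± 0.82, adjusted p = 0.00351) and held without each library. On CD it was not called (0.76), and the effects differed by 5.65 ± 1.22 (interaction adjusted p = 0.0205). In a group of constant region genes made after the values were seen, 3 of 8 were called: Ighg1, Ighg2c (0.432, 0.465 and 0.821 CPM against 6.3, 1.72 and 22.8 CPM, 4.16 ± 0.85, adjusted p = 0.0373) and the light chain Igkc (3.02, 2.87 and 3.28 CPM against 8.45, 14.4 and 38.8 CPM, 2.75 ± 0.54, adjusted p = 0.0313). Reads of the IgG genes can be shared between them. Without each LPD Vec liver Ighg1 alone was called, and without c-MET/β-catenin replicate 3 as well. In the fit to the 6 LPD libraries alone the group held 0 calls (Ighg1, adjusted p = 0.06), and with no filter on low counts or with the header grouping as a term it held 1. Jchain and Mzb1, both of plasma cells, were at 2.33 and 2.24 (adjusted p = 0.134 and 0.188), while the B cell genes Cd79a, Cd79b and Ms4a1 lay between -0.54 and -0.34. None of the 7 B and plasma cell markers was called (2 at an unadjusted p below 0.05, 1 by DESeq2), and their summed level was 8.15 to 11.3 CPM against 10.7 to 20.5 CPM.

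No marker of the other cell types was called (0 to 2 a list at an unadjusted p below 0.05, 0 by DESeq2), and none of those tested was at 0 in all 6 livers. Rhag, an erythroid membrane protein that the filter on low counts removed, was at 0 in all 6. Summed markers were 116812 to 142783 CPM in Vec and 89103 to 126008 CPM in oncogene livers for hepatocytes and 253 to 398 against 288 to 388 CPM for endothelial cells. They were 247 to 291 against 252 to 332 CPM for stellate cells and fibroblasts, 73.5 to 85.1 against 67.3 to 76.5 CPM for cholangiocytes, 2.97 to 5.03 against 2.98 to 5.99 CPM for neutrophils and 147 to 187 against 102 to 153 CPM for erythroid cells. All 7 erythroid markers tested were below 0 (median -0.86), as were 9 of the 10 of hepatocytes (median -0.19). In the extracellular matrix none of 27 genes was called (2 at an unadjusted p below 0.05, 1 by DESeq2), with a median of 0.15. Eln, elastin, was highest at 0.90 (3.12, 2.37 and 2.56 CPM against 4.94, 6.6 and 3.45 CPM, adjusted p = 0.111). On CD 18 of the 27 were called higher, beside 18.7% of all genes, with a median of 1.85. In 8 the interaction was called, beside 8.91% of all genes, each with the LPD effect below that on CD. In the acute phase list of 22, Saa3, the serum amyloid A of macrophages, was the 1 call (3.65, 3.89 and 3.18 CPM against 7.97, 9.16 and 14.6 CPM, 1.56 ± 0.32, adjusted p = 0.035), lost without any LPD Vec liver or without c-MET/β-catenin replicate 2 or 3 (at most 0.169).

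**Figure D4:**
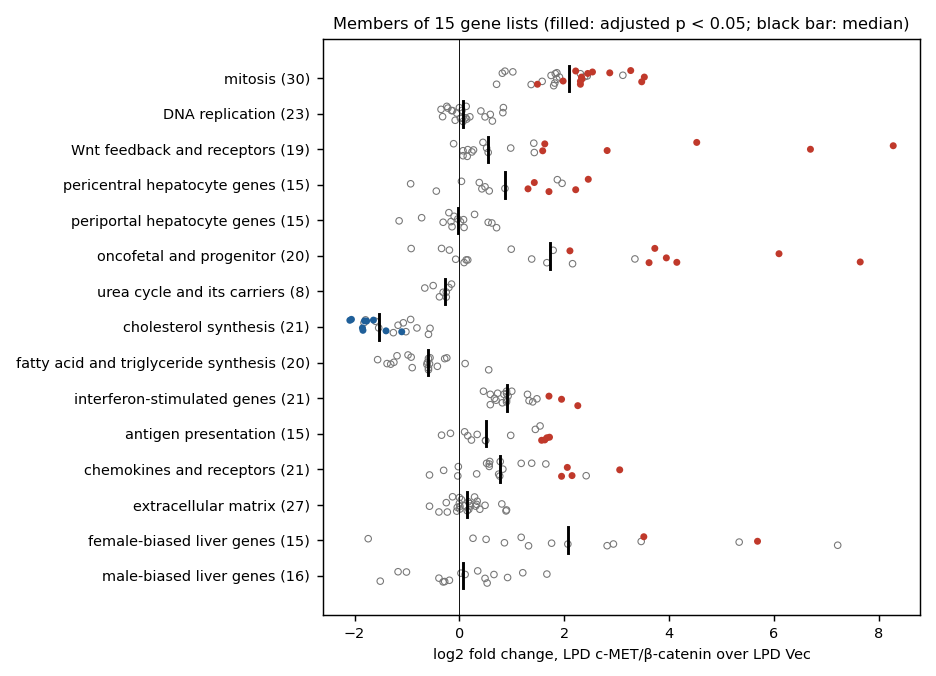
Log2 fold changes on LPD of the members of 15 of the 46 gene lists, with the number tested in brackets. Filled points passed the threshold (red higher, blue lower), open ones did not, and the black bar is the median, which runs from -1.54 in cholesterol synthesis to 2.10 in mitosis beside 0.01 over all genes.

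Among the remaining genes called lower, Hgfac, the protease that activates hepatocyte growth factor, was at 180, 153 and 183 CPM against 101, 85.7 and 101 CPM (-0.85 ± 0.13, adjusted p = 0.00917), and missed the threshold without LPD Vec replicate 1 or 3 (at most 0.0573). Tlcd2, a regulator of membrane lipids, was at 73.3, 65.6 and 75.8 CPM against 23.7, 23.6 and 27.6 CPM (-1.52 ± 0.31, adjusted p = 0.0344). Rab23, a small GTPase of vesicle traffic, was at 11.6, 10.3 and 13.4 CPM against 5.23, 4.18 and 4.2 CPM (-1.38 ± 0.29, adjusted p = 0.0388). Plce1, a phospholipase C, was at 10.7, 11.7 and 14.3 CPM against 6.25, 5.72 and 7.04 CPM (-0.95 ± 0.19, adjusted p = 0.0327). Each of these 3 lost its call without 7 to 9 of the 12 libraries, every LPD library among them, with adjusted p values of at most 0.178. Rdh9, a retinol dehydrogenase, was called higher, at 115, 106 and 52.5 CPM against 244, 325 and 212 CPM (1.51 ± 0.32, adjusted p = 0.0403), and lost that call without 9 libraries (at most 0.169). Slc39a4, a zinc importer, was called higher at 3.03 ± 0.54 (adjusted p = 0.0201), lost without any LPD Vec liver or without c-MET/β-catenin replicate 2 (at most 0.0887).

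Further lists held no call by edgeR in the fit to all 12 libraries. They were 29 cytochrome P450 enzymes (8 at an unadjusted p below 0.05, 2 by DESeq2, median 0.04), 18 genes of the circadian clock (1 and 0, median -0.08), 22 cytosolic ribosomal proteins (0 and 0, median -0.07), 15 chaperones of the endoplasmic reticulum (0 and 0, median 0.12), 12 genes of the hypoxia response (1 and 0, median 0.30), 10 of polyamine metabolism (2 and 0, median 0.17) and 5 of pyrimidine breakdown (0 and 0, median -0.33). The fit to the 6 LPD libraries alone called 2 of the cytochrome P450 enzymes, 1 of the chaperones and 1 of the polyamine genes higher. In lists described above it called 4 p53 targets, 3 amino acid transporters, 1 gene of the growth hormone and IGF axis and 1 B or plasma cell marker higher. It called 1 p53 target, 1 amino acid transporter, 3 genes of the methionine cycle, 2 of the growth hormone and IGF axis and 1 cholangiocyte marker lower. Of the 46 gene lists, 22 held a call and 24 none. The lists took in 65 of the 184 called genes, so that 119 called genes, named above in part, lay in none of them.

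Set against CD, where other livers of both kinds were compared, the genes called higher on LPD were mostly higher there too. Of the 161, 149 were called higher on CD, 12 were not called and none was lower. Of all genes tested, 18.7% were called higher on CD and 16.7% lower. Of the 23 called lower, 6 were lower on CD, 7 were not called and 10 were higher. The interaction was called for 28 of the 161, beside 8.91% of all genes tested. The LPD effect was below the CD effect in 24 and above it in 4, which were Ighg1, Slco1c1, Slc25a30 and Clec11a. With all libraries 42 of the 184 genes called on LPD had a called interaction. Without LPD Vec replicate 1, 2 or 3 it was 15, 9 or 17 of the 52, 54 or 57 genes then called on LPD, and without c-MET/β-catenin replicate 1 it was 22 of 125. Axin2 and Glul were among the 24, with LPD minus CD differences of -1.63 ± 0.32 and -1.39 ± 0.29 (adjusted p = 0.0128 and 0.0169). Slco1c1, a transporter of thyroid hormone, was at 0.096, 0.0845 and 0.0513 CPM against 5.23, 5.93 and 2.54 CPM on LPD (5.78 ± 0.56, adjusted p = 7.19e-04) and at 2.21 on CD. Slc25a30, a mitochondrial carrier, was at 11.2, 21.5 and 30.7 CPM against 49.9, 76.5 and 60.8 CPM (1.56 ± 0.30, adjusted p = 0.0299) beside -0.27 on CD. Clec11a, a growth factor of bone, was at 1.37 ± 0.27 (adjusted p = 0.0299) beside -0.67. These 2 were picked out after their values were seen. Slco1c1 held without each library, Slc25a30 lost its call without 4 and Clec11a without 5 of the LPD libraries (at most 0.13 and 0.152).

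**Figure D5:**
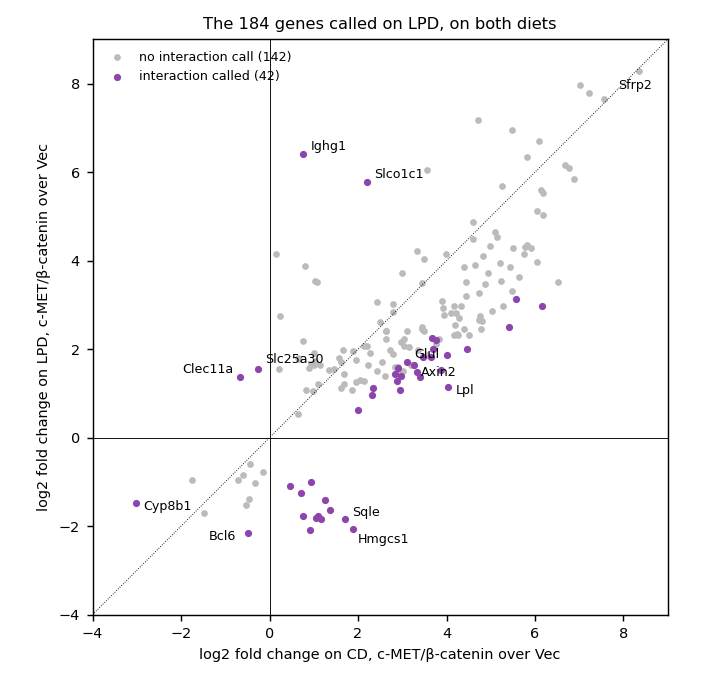
The 184 genes called on LPD, with the oncogene effect (log2) on CD along the horizontal axis and that on LPD along the vertical axis, the dotted line marking equal effects. Purple marks the 42 genes with a called interaction. Most genes called higher lie below the line, the 10 genes lower on LPD and higher on CD fill the lower right, and Ighg1 and Slco1c1 stand above the line.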

How the data were processed

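Liver RNA of 12 mice was sequenced, 3 in each of 4 groups. The labels give ribosomal RNA depletion and the study's methods a stranded poly(A) protocol with single reads of 50 bp, so which kit was used is unclear. The authors aligned reads with HISAT2 to mm10 and deposited raw counts per Entrez gene (featureCounts per the study's methods, which also name DESeq). Versions and the strand setting are not given in the sources used here, so overlapping and antisense genes, and families with near-identical members (IgG constant genes, aldo-keto reductases, MHC genes, Cyp2a, Gstm and Mup genes), are uncertain as single counts.

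From these counts, all 12 libraries (19476209 to 31990267 counts) were fitted together in edgeR 4.0.16 (R 4.3.3) with TMM scaling, filterByExpr, robust quasi-likelihood F-tests and Benjamini-Hochberg adjustment over the 13947 genes tested. The LPD oncogene effect was 1 contrast, and the interaction was that effect minus the CD effect. The common dispersion was 0.0537, a biological coefficient of variation of 23.17%. Symbols came from RefSeq (GRCm38.p6) for 25275 genes and GENCODE M21 for 18, and 1886 genes had none. No libraries of a group were duplicates in a chi-square comparison of their counts. On simulated counts for this contrast over 13392 genes, the fit called 60% of genes changed by 1 on the log2 scale (n = 50) and 96% of those changed by 2 (n = 50), with 9 unchanged genes called. The changed genes were drawn from those with a mean above 1 CPM in Vec livers, and the simulated CD livers had no oncogene effect.

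Members and lists were chosen with earlier results of these data known. Named genes were the 15 called genes with the largest fold a direction and the 10 with the largest difference in CPM. Those 15 had a full symbol, a mean of at least 1 CPM over the 6 LPD libraries and no overlap between the groups. The listed genes that the comparisons turn on were named too, as were genes given as chosen after their values were seen. Some genes that this rule names are not reported here. Promoters were RefSeq windows of 250 bases before to 50 after the start. Ratios from 1 to 3 Vec counts carry exact 95% intervals, and the floor for 0 counts was 3 counts over the group. Both cover counting error only. Alternatives were DESeq2 1.42.0, its size factors, library totals, no filter, a term for the header's data sets, the 6 LPD libraries alone, the replicate number as a block, and each library left out.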

Additional observations from a re-analysis of the deposited data

Results flagged for a closer look

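The results here were picked out because the effect of c-MET/β-catenin differed between the 2 diets by the interaction test of edgeR (adjusted p below 0.05, called for 8.91% of all genes tested). Each value is the log2 effect on LPD minus that on CD, and no explanation was tested. On CD the header grouping went largely with the oncogene, so these differences cannot be fully told apart from it.

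In cholesterol synthesis the LPD effect lay below the CD effect for Hmgcs1 (-3.94), Sqle (-3.55), Mvk (-3.24), Mvd (-3.01), Msmo1 (-3.01), Nsdhl (-3.0), Idi1 (-2.91), Fdps (-2.86), Lss (-2.65), Cyp51 (-2.61), Dhcr7 (-2.53), Fdft1 (-2.09), Srebf2 (-2.07) and Hsd17b7 (-1.56). It did so too for Bcl6 (-1.67), Aldoc (-1.98), Ggct (-1.94) and 4930483K19Rik (-2.88), which were called lower on LPD.

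Among Wnt and pericentral genes the difference was -3.06 for Tcf7, -2.40 for Lgr5, -1.63 for Axin2, -1.39 for Glul and -0.81 for Znrf3. For the mitosis genes Top2a and Kif11 it was -2.74 and -1.84, and for the fetal RNA H19 -5.13. Lpl (-2.89), Eln (-2.44), Car2 (-2.01), Slc1a5 (-1.55), Usp18 (-1.42) and the macrophage lysozyme Lyz2 (-1.09) also had a smaller effect on LPD.

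The LPD effect lay above the CD effect for the urea cycle genes Cps1 (2.72), Otc (2.48) and Asl (1.50). It did so for the male-biased genes Mup21 (6.12) and Cyp4a12b (4.94) and for Hsd17b6 (4.51) of the periportal list. The same held for Cish (3.74), Thrsp (2.14), Cyp8b1 (1.54), Ighg1 (5.65), Slco1c1 (3.57), Clec11a (2.04) and Slc25a30 (1.83).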

How the results depend on the processing

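All 184 called genes kept their direction in the 19 alternatives (180 of them were tested in the fit to the 6 LPD libraries), and 36 kept their call in every one, 34 higher and 2 lower. The count of 184 (161 higher, 23 lower) became 497 (389 and 108) with DESeq2, 505 (337 and 168) in the fit to the 6 LPD libraries alone and 75 (63 and 12) with a term for the header's data sets. The share of calls that were higher, 87.5%, was 78.3%, 66.7% and 84% there. Scaling by library totals, which moved the median of all genes to 0.12, left 14 lower calls and 93.5% higher. Leaving out 1 library gave 52 to 254 calls, 47 to 204 higher and 4 to 50 lower. The 42 called genes with an interaction became 148 with DESeq2, 9 with the header term and 9 to 52 with 1 library left out. With a replicate block 151 genes were called (129 higher, 22 lower, 33 with an interaction), 135 of them shared with the main 184. Deviations of same-numbered LPD libraries correlated little (r = -0.08, 0.17 and -0.05 for replicates 1, 2 and 3). Whether such samples shared a step of handling is not given, and these values cannot settle it. The sign turned for Mcm2 with the header term (-0.12), and for Pcna without LPD Vec replicate 3 and without c-MET/β-catenin replicate 3 (range -0.02 to 0.16 over left-out libraries), none of them called. The cause of these shifts was not tested. With 3 livers a group, genes above 1 CPM in Vec that changed by 1 on the log2 scale were called in 60% of simulated cases. A gene not called may therefore still differ, and genes at lower levels were not changed in the simulation.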
